A study of Macaca mulatta with 48 samples.

Results

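Interferon-induced genes were represented by 7 genes, ISG15, MX1, MX2, IFIT1, IFIT3, IFI6 and IFI27, out of 26530 genes counted in single cells of the rhesus macaque testis. They were listed by gene symbol, each symbol named 1 gene in the deposited tables, and the list was chosen from values seen in these same libraries, so that their levels are given here as a description with no test. The Ensembl identifiers were ENSMMUG00000050757 for ISG15, ENSMMUG00000015329 for MX1, ENSMMUG00000044257 for MX2, ENSMMUG00000017533 for IFIT1, ENSMMUG00000005001 for IFIT3, ENSMMUG00000011454 for IFI6 and ENSMMUG00000023780 for IFI27. The 6 males fell into 3 ages, with 2 prepubertal animals of 1 year, 2 adult animals of 6 years and 2 aged animals of 22 years. Both testes of an animal were sampled, in August for the non-breeding and in December for the breeding season. This gave 12 libraries of droplet single-cell RNA sequencing with unique molecular identifiers (UMIs). Each age and season therefore held 2 libraries, and the seasons of an animal were paired. The labels list 48 samples, 8 for each age and season, none of which is tied to a count table, and the library sheet that ties the tables to animals calls the youngest age pubertal.

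Interferons are secreted proteins through which cells warn each other of infection. They bind receptors at the cell surface, the kinases JAK1 and TYK2 then pass the signal on, and a complex that holds IRF9 binds the interferon-stimulated response element (ISRE) in the promoters of many genes. The 7 genes are among its classic targets. ISG15 is a ubiquitin-like protein that is coupled to other proteins, MX1 and MX2 are dynamin-like GTPases that block viruses, IFIT1 binds viral RNA, IFIT3 stabilises IFIT1, and IFI6 and IFI27 are small hydrophobic proteins of 1 family that sit in the membranes of the endoplasmic reticulum and mitochondria. In the testis, type I interferon signalling is known from Sertoli cells, which enclose the germ cells, and from macrophages and Leydig cells.

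The sequences below are shown because they are promoter stretches that carry the element through which these genes are known to respond. The motif searched was GAAANNGAAA on either strand, in the 250 bases before each annotated transcript start of the Mmul_10 genome (RefSeq annotation), and its matches are in capitals. Overlapping matches merge into 1 run of capitals. A match on the opposite strand reads TTTC, 2 bases, TTTC.
ISG15, chr1:223405166-223405201, minus strand: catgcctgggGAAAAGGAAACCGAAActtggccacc
IFI6, chr1:197051426-197051557, plus strand: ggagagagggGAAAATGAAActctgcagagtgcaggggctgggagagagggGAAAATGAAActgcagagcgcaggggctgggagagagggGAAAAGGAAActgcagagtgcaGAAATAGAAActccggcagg
IFI27, chr7:156288936-156288978, plus strand: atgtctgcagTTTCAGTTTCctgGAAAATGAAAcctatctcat
IFIT1, chr9:89643328-89643408, plus strand: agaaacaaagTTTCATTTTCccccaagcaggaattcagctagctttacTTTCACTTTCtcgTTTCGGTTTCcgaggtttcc
IFIT1, chr9:89657898-89657927, plus strand: tctaaatataGAAACTGAAAatagagctac

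IFI6 held 4 matches before its first transcript start, within a stretch in which a block of sequence recurs, and ISG15 and IFI27 held 2 each. The main start of a gene was taken as the start shared by most of its transcripts, or the one farthest upstream where none was shared. At the main starts 3 of the 7 genes had a match, against 643 of 20787 protein-coding genes (3.09%). The 2 stretches of IFIT1 lie before starts inside that gene and are not in this count, and not every match before such an inner start is shown. Of the 48 other type I interferon effector genes listed below, 17 had a match at the main start (35.4%). The second element of interferon signalling, the gamma-activated site TTCNNNGAA, was found at the main start of 1 of the 7 genes, IFI27, against 5.87% of all genes. The genes themselves lie at chr1:223403948-223405102 for ISG15, chr3:5189230-5224218 for MX1, chr3:5231296-5275461 for MX2, chr9:89628584-89669645 for IFIT1, chr9:89585075-89596574 for IFIT3, chr1:197051586-197057742 for IFI6 and chr7:156289053-156295024 for IFI27, whose gene model is annotated as partial. MX1 and MX2 are neighbours on chromosome 3, as are IFIT3 and IFIT1 on chromosome 9, and how reads shared by such related genes were counted was not given in the sources used here, so that their counts carry this uncertainty.

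After filters and removal of predicted doublets 102715 cells remained, and 12 cell classes were named from marker genes. Library totals ran from 20996318 to 36978949 UMIs, apart from the breeding library of adult animal 2, which kept 117 of 333 barcodes and 165380 UMIs. That library shared 44 of its 117 barcodes with the breeding library of aged animal 1, and 0 to 2 with each other library. The other pairs of libraries shared at most 41 barcodes, between libraries of 10310 and 11743 cells. Whether the cells of the small library belong to adult animal 2 was not tested. The non-breeding library of prepubertal animal 1 held 1408 cells (14.7%) that clustered with cells of older animals, among them spermatocytes, spermatids and 642 Sertoli cells. The non-breeding library of aged animal 1 held 2112 of the 2511 T and NK cells. Values resting on these libraries are given library by library. Levels are given as CPM, the UMIs of a gene scaled to a common total of all UMIs of a class in a library, for sums of at least 20 cells. These droplet libraries tag transcripts at 1 end, so that a UMI stands for a transcript whatever its length. Intervals cover counting error only.

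IFI27 was by far the most abundant of the 7 genes, with 302016 UMIs over all analysed cells, followed by IFI6 with 62724. MX1 had 10873 UMIs, ISG15 9781, IFIT1 6007, IFIT3 5214 and MX2 1581. In prepubertal animals Sertoli cells held 86.6% of the IFI27 UMIs and 88.6% of the IFI6 UMIs, and they held between 66.3% and 83.6% for the other 5 genes. Sertoli cells also held most of the UMIs of all genes in these libraries, so that no enrichment is read from the shares. In aged animals, whose libraries held few Sertoli cells, the largest share of ISG15, MX1, MX2, IFIT1, IFIT3, IFI6 and IFI27 came from endothelial cells, between 24.7% for IFI6 and 56.7% for IFIT3. That order rests on the non-breeding library of aged animal 1, which held 1292 of the 1725 endothelial cells. Over the other 3 aged libraries endothelial cells still had the most UMIs of ISG15, MX1, MX2 and IFIT3 among the named classes, but Sertoli cells had more of IFI6 (124 against 72) and IFI27 (609 against 591), and late spermatocytes more of IFIT1 (265 against 107).

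The 7 genes differed in the class where they stood highest. Endothelial cells had the highest median over 11 libraries for ISG15 (104 CPM, range 62.0 to 245), MX1 (159 CPM, 74.4 to 290), IFIT1 (250 CPM, 117 to 396) and IFIT3 (198 CPM, 96.0 to 302). For IFIT1 every endothelial library lay above every library of every other class, since the highest value elsewhere was 85.4 CPM in myeloid cells. For ISG15, MX1 and IFIT3 the endothelial range overlapped that of myeloid cells, which reached 156, 255 and 113 CPM. For ISG15 it also overlapped peritubular and smooth muscle (up to 101 CPM), Sertoli and interstitial stromal (86.6 CPM each) and T and NK cells (81.2 CPM). For MX1 it also overlapped T and NK cells (138 CPM), peritubular and smooth muscle cells (117 CPM), Sertoli cells (103 CPM), early spermatocytes (86.6 CPM) and interstitial stromal cells (86.4 CPM). MX2 was highest in myeloid cells (median 56.8 CPM, range 15.6 to 212 over 10 libraries), and endothelial cells came next (28.3 CPM, 0 to 105), with overlapping ranges. IFI6 was highest in Sertoli cells (282 CPM, 21.0 to 610), followed by myeloid cells (250 CPM, 18.4 to 532) and Leydig cells (225 CPM, 53.7 to 375), which did not separate. IFI27 had medians of 1885 CPM in Leydig cells (1510 to 2648 over 4 prepubertal and 1 aged library) and 1447 CPM in Sertoli cells (277 to 2368 over 11 libraries of all ages), which rest on different libraries. In the 4 prepubertal libraries it was at 1885, 1711, 2648 and 1510 CPM in Leydig cells and at 1754, 2368, 2233 and 2194 CPM in Sertoli cells, and neither class was the higher one throughout. Early and late spermatocytes and both kinds of spermatids were in the lower part of the order for all 7 genes, and the levels of IFIT1 and MX1 there are given further on.

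**Figure D1:**
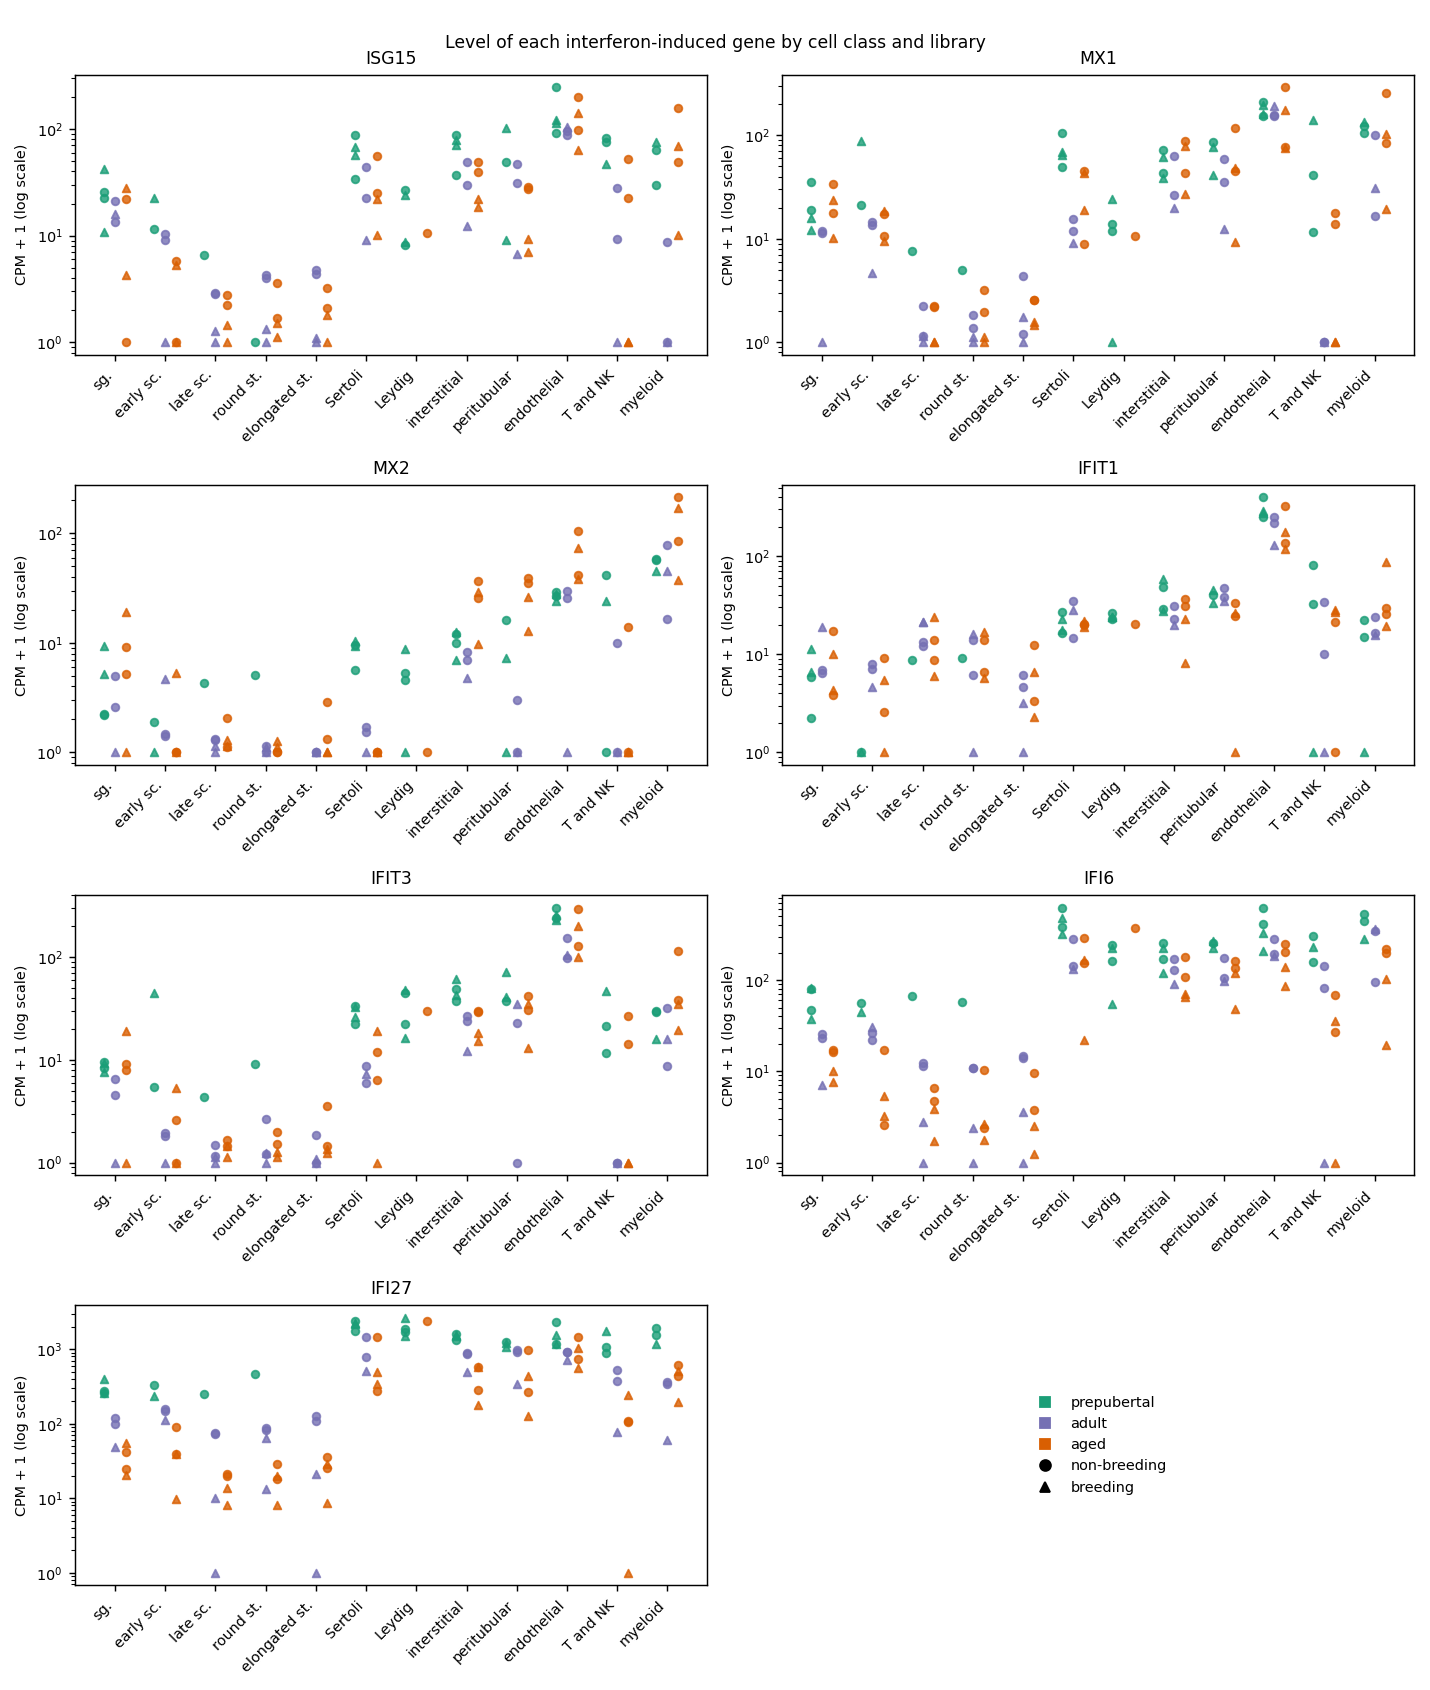
Each point is the level of a gene in 1 cell class of 1 library, as CPM + 1 on a log scale, coloured by age and shaped by season; sg., sc. and st. stand for spermatogonia, spermatocytes and spermatids, and class names are shortened. IFIT1 stands above 117 CPM in every endothelial sum, and the prepubertal points of IFI27 lie at or near the top in most classes.

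In Sertoli cells the values of the prepubertal libraries lay above all older ones for 5 of the 7 genes, in part within the counting error of the aged libraries. IFI27 was at 1754 and 2368 CPM in the non-breeding libraries of the 2 prepubertal animals and at 2233 and 2194 CPM in the breeding ones. Adult animals had 780 and 1447 CPM in the non-breeding season and 517 CPM in the breeding library of animal 1, the other breeding library having too few Sertoli cells. In aged animals it was at 277 and 1474 CPM in the non-breeding season and at 499 and 336 CPM in the breeding season. By the test described further on, 9.05% of all Sertoli genes were lower in adults than before puberty, and since the 7 genes were chosen with values of these libraries known nothing is read from their number. The lowest prepubertal library exceeded the highest older one for IFI27, and the adult and aged ranges overlapped.

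MX1 in Sertoli cells was at 48.05, 103, 68.5 and 63.9 CPM in the 4 prepubertal libraries (non-breeding 1 and 2, then breeding 1 and 2), at 14.6, 10.9 and 8.14 CPM in the 3 adult ones and at 8.002, 43.8, 18.2 and 42.0 CPM in the 4 aged ones. IFIT3 was at 21.5, 32.7, 31.4 and 25.4 CPM in the prepubertal libraries, at 4.88, 7.61 and 6.33 CPM in the adult ones, and between 0 and 18.2 CPM in the aged ones. MX2 was at 4.61, 8.49, 9.37 and 8.38 CPM before puberty and at 0.697, 0.543 and 0 CPM in adults. For these 3 genes too the prepubertal and the older libraries did not overlap, although the aged values rest on 31 to 182 Sertoli cells a library. The highest aged values of MX1 and IFIT3 have intervals of 25.05 to 71.2 and 2.20 to 65.6 CPM, which hold the lowest prepubertal value, so that for these genes the separation from aged animals lies within counting error. MX2 had no UMI in the aged Sertoli cells, which allows a level of up to 8.002 and 8.22 CPM in the non-breeding and 27.2 and 63.0 CPM in the breeding libraries (3 UMIs). The 95% intervals reach 9.84, 10.1, 33.5 and 77.4 CPM, so that a level like that before puberty was not detectable there.

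IFI6 in Sertoli cells was at 383, 610, 478 and 319 CPM in the prepubertal libraries, at 142, 282 and 131 CPM in the adult ones and at 155, 288, 163 and 21.0 CPM in the aged ones, again without overlap. The 288 CPM has an interval of 235 to 348 CPM, which holds the lowest prepubertal value, and the 21.0 CPM rests on 1 UMI. ISG15 was at 32.9, 86.6, 56.5 and 66.3 CPM before puberty, at 21.5, 43.5 and 8.14 CPM in adults and at 24.01, 54.8, 9.08 and 21.0 CPM in aged animals, so that the lowest prepubertal library lay inside the older range. IFIT1 was the exception among the 7, at 15.7, 25.7, 21.8 and 16.5 CPM before puberty against 13.7, 34.0 and 27.1 CPM in adults and 18.2 to 21.0 CPM in aged animals.

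As a mean over the 2 animals of an age, on the scale log2(CPM + 10), which understates differences at low levels, the adult minus prepubertal difference in Sertoli cells was -1.90 for MX1 (SD within ages 0.22), -1.18 for IFIT3 (0.10), -1.14 for IFI27 (0.60), -1.11 for IFI6 (0.50), -0.92 for ISG15 (0.67) and -0.75 for MX2 (0.07). For IFIT1 it was 0.28 (SD 0.29), with the 2 ages overlapping. The aged minus adult differences, which share the adult animals, lay between -0.89 for IFI27 and 0.72 for MX1, with SDs up to 0.74. Among prepubertal animals the non-breeding library of animal 2 was the highest for ISG15, MX1, IFI6, IFI27, IFIT1 and IFIT3, and that of animal 1 was the lowest for 6 of the 7 genes, IFI6 being the exception.

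**Figure D2:**
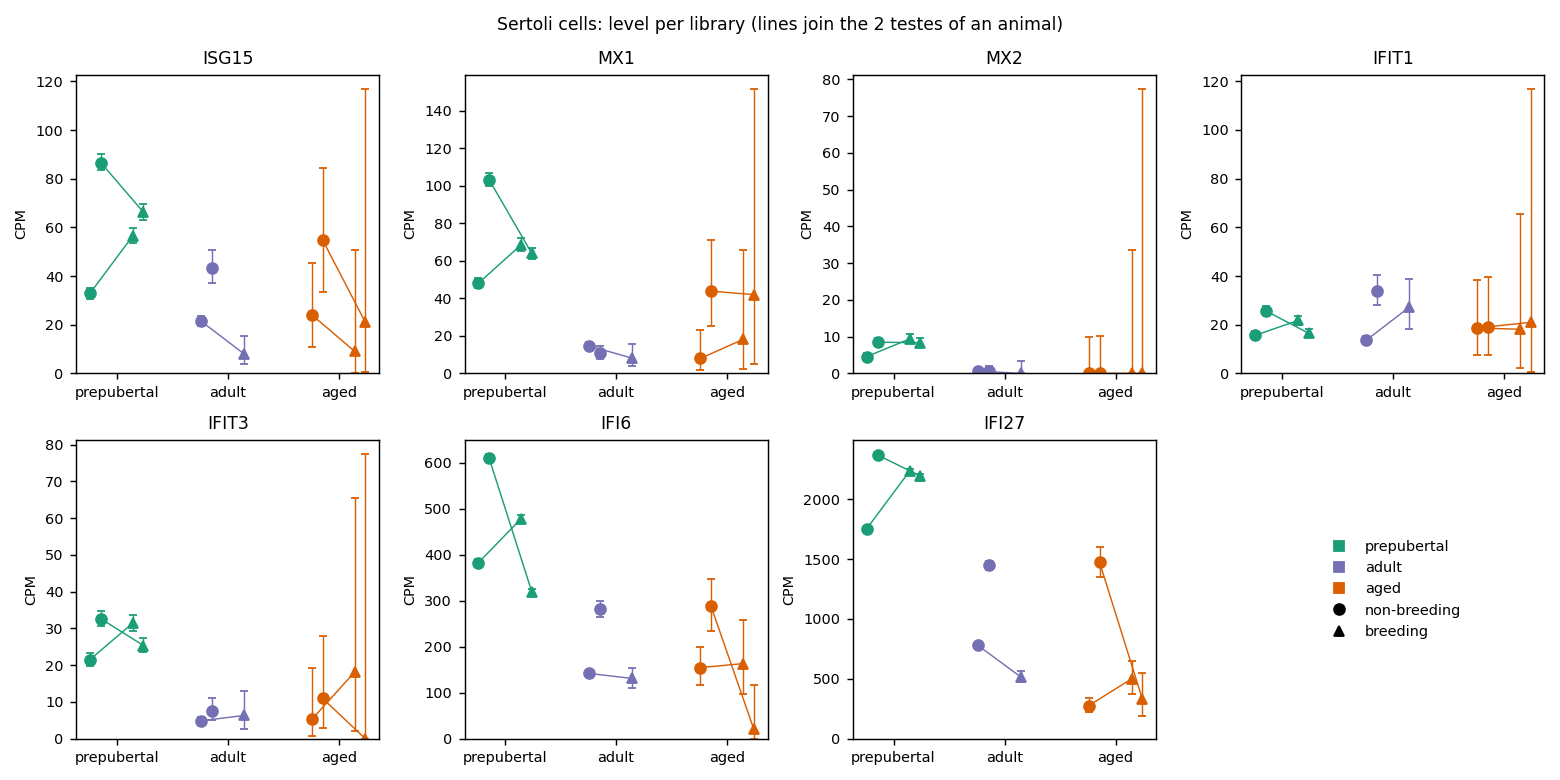
Points give the level of each gene in the Sertoli cells of each library in CPM, with bars for the 95% Poisson interval of the count, circles for the non-breeding and triangles for the breeding season. Lines join the testes of an animal. The prepubertal points of IFI27 lie between 1754 and 2368 CPM, above the older ones, whereas those of IFIT1 overlap them.

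Sertoli cells of different clusters were also compared within a single library. The 642 Sertoli cells of prepubertal animal 1 (non-breeding) that fell into clusters made mostly of older animals' cells had 930 CPM of IFI27, 178 of IFI6, 16.7 of MX1, 7.16 of IFIT3 and 1.79 of MX2. The 5557 other Sertoli cells of that library had 1881, 414, 52.9, 23.8 and 5.04 CPM of the same genes. The Sertoli cells of such clusters in the non-breeding library of adult animal 1 had 781, 142, 14.7, 4.89 and 0.698 CPM. ISG15 was at 20.9, 34.8 and 21.5 CPM in these 3 groups of cells and IFIT1 at 19.7, 15.0 and 13.6 CPM. The adult libraries differed among themselves. Sertoli cells of such clusters had 1450 CPM of IFI27, 281 of IFI6 and 43.6 of ISG15 in the non-breeding library of adult animal 2. In the breeding library of adult animal 1 they had 517, 131 and 8.14 CPM. MX1 was at 10.9 and 8.14 CPM and IFIT3 at 7.62 and 6.33 CPM in these libraries. Inside a library labelled prepubertal, the cells in older-type clusters thus had levels of IFI27, IFI6, MX1, IFIT3 and ISG15 near those of 1 adult library, the non-breeding one of animal 1. MX2 in them lay between the level of that adult library and that of the other cells. Whether they belong to that animal was not tested, and a prepubertal animal and cells from another sample cannot be told apart here. The clusters had been built without the interferon genes. The cells were still picked by their likeness to older cells in other genes, so that the comparison is a description and no check of the age pattern.

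Immediate early genes such as FOS, JUN and EGR1, which rise in cells stressed by tissue dissociation, moved with age as well. Their summed level in Sertoli cells was 2325 to 8422 CPM in prepubertal libraries, 1356 to 3537 CPM in adult ones and 107 to 617 CPM in aged ones. It was lowest among prepubertal libraries in the non-breeding library of animal 1, where most of the 7 genes were lowest too, and highest in the breeding library of animal 1, where MX2 was highest and the other 6 genes were not. The part of this response in the levels of the 7 genes was not tested.

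The age pattern of IFI27 extended to other somatic classes, and that of the remaining genes did so in part. In interstitial stromal cells, which lie between the tubules, IFI27 was at 1335 to 1599 CPM in the 4 prepubertal libraries, 488 to 902 CPM in the 3 adult and 178 to 586 CPM in the 4 aged ones, with no overlap between prepubertal and older libraries. IFIT3 there was at 36.3 to 60.7 CPM against 11.3 to 25.7 and 14.2 to 28.8 CPM, also without overlap. The 25.7 and 28.8 CPM have intervals of 14.03 to 43.1 and 14.9 to 50.3 CPM, which hold the lowest prepubertal value. This separation thus lies within counting error. In peritubular and smooth muscle cells IFI27 was at 1065 to 1250 CPM in prepubertal libraries against 340 to 978 and 126 to 984 CPM. The 978 and 984 CPM have intervals of 894 to 1068 and 881 to 1095 CPM, which also hold the lowest prepubertal value.

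Sertoli transcripts were found in the other classes too. INHA and AMH, which Sertoli cells express, stood in prepubertal interstitial stromal cells at a median of 18.8% and 16.1% of their Sertoli level, and in prepubertal T and NK cells at 61.3% and 45.5%. IFI27 stood at 69.6% of its Sertoli level in the stromal cells and at 51.1% in the T and NK cells. In the T and NK cells of prepubertal animals (896 to 1750 CPM) IFI27 thus lay between the 2 Sertoli genes by its median, and its range of 44.6% to 79.8% overlapped those of AMH (23.3% to 48.3%) and INHA (19.9% to 63.5%). In myeloid cells IFI27 was at 82.0%, above AMH at 51.2% and INHA at 56.4%, with a range of 53.8% to 88.7% that overlapped both. The part of Sertoli RNA in these values was not tested. In Leydig cells IFI27 was at 89.8% of the Sertoli level and INHA at 20.2%, without overlap of their ranges, and the single aged library with Leydig cells had 2407 CPM against 277 CPM in its Sertoli cells.

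Endothelial cells, which line the blood vessels, had the highest medians of ISG15, MX1, IFIT1 and IFIT3, while MX2 had its highest in myeloid cells. At least 2 of the 5 genes other than IFI6 and IFI27 were found together in 10.3% to 44.6% of the endothelial cells of a library, against 1.28% to 21.7% of myeloid cells and 0% to 18.4% of Sertoli cells, at unequal depths and with overlapping ranges. IFIT1 was found in 11.9% to 43.5% of endothelial cells, and after thinning every cell to 500 UMIs in 4.86% to 14.0%. In Sertoli cells the thinned share was 0.594% to 1.80%. The median depth was 846 to 3006 UMIs in endothelial and 1359 to 3807 UMIs in Sertoli cells.

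By library, IFIT1 in endothelial cells was at 250, 396, 272 and 285 CPM in the prepubertal libraries (non-breeding 1 and 2, then breeding 1 and 2), at 215, 250 and 130 CPM in the adult ones and at 136, 320, 174 and 117 CPM in the aged ones. IFIT3 was at 237, 302, 231 and 256 CPM, then 153, 96.0 and 104 CPM, then 128, 290, 99.2 and 198 CPM. The aged values spanned most of the prepubertal and adult range for both genes, and aged animal 2 stood high in the non-breeding season. MX1 was at 154, 207, 159 and 196 CPM before puberty and at 157, 154 and 191 CPM in adults, ranges that overlapped, and at 75.9, 290, 74.4 and 174 CPM in the aged. ISG15 was at 90.0, 245, 113 and 120 CPM, then 95.2, 86.4 and 104 CPM, then 97.8, 200, 62.0 and 142 CPM. IFI27 in endothelial cells was at 1177, 2300, 1169 and 1548 CPM before puberty, at 923, 912 and 720 CPM in adults and at 728, 1442, 558 and 1044 CPM in the aged. IFI6 was at 409, 622, 323 and 205 CPM, then 282, 192 and 182 CPM, then 245, 200, 136 and 84.95 CPM. For both genes the prepubertal libraries overlapped the older ones.

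The 2 aged animals differed from each other in MX1 and MX2 of endothelial cells, in the breeding season within counting error. Aged animal 1 had 75.9 and 74.4 CPM of MX1 in its non-breeding and breeding libraries, and aged animal 2 had 290 and 174 CPM. The breeding intervals of animals 1 and 2 overlapped, at 27.3 to 162 and 126 to 234 CPM for MX1 and 7.68 to 109 and 43.2 to 115 CPM for MX2. MX2 was at 40.3 and 37.2 CPM in animal 1 and at 105 and 72.8 CPM in animal 2, against 23.1 to 28.3 CPM in prepubertal and 0 to 28.8 CPM in adult libraries. All 4 aged values thus lay above all younger ones for MX2 in endothelial cells, but the lowest aged value of 37.2 CPM and the highest adult one of 28.8 CPM rest on 3 UMIs each, with intervals of 7.68 to 109 and 5.94 to 84.2 CPM, so that this separation lies within counting error. The summed level of T and NK cell markers in the whole library was 382 CPM in the non-breeding library of aged animal 1 and 31.0 CPM in that of aged animal 2, and the part of these cells in the levels was not tested. IFI6 in endothelial cells was at 245 CPM in the first and 200 CPM in the second of these libraries. In the breeding libraries of aged animals 1 and 2 it was at 136 and 84.95 CPM. IFIT1 changed order, at 136 and 320 CPM in the non-breeding and 174 and 117 CPM in the breeding libraries of these animals. ISG15, IFIT3 and IFI27 were higher in animal 2 in both seasons.

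**Figure D3:**
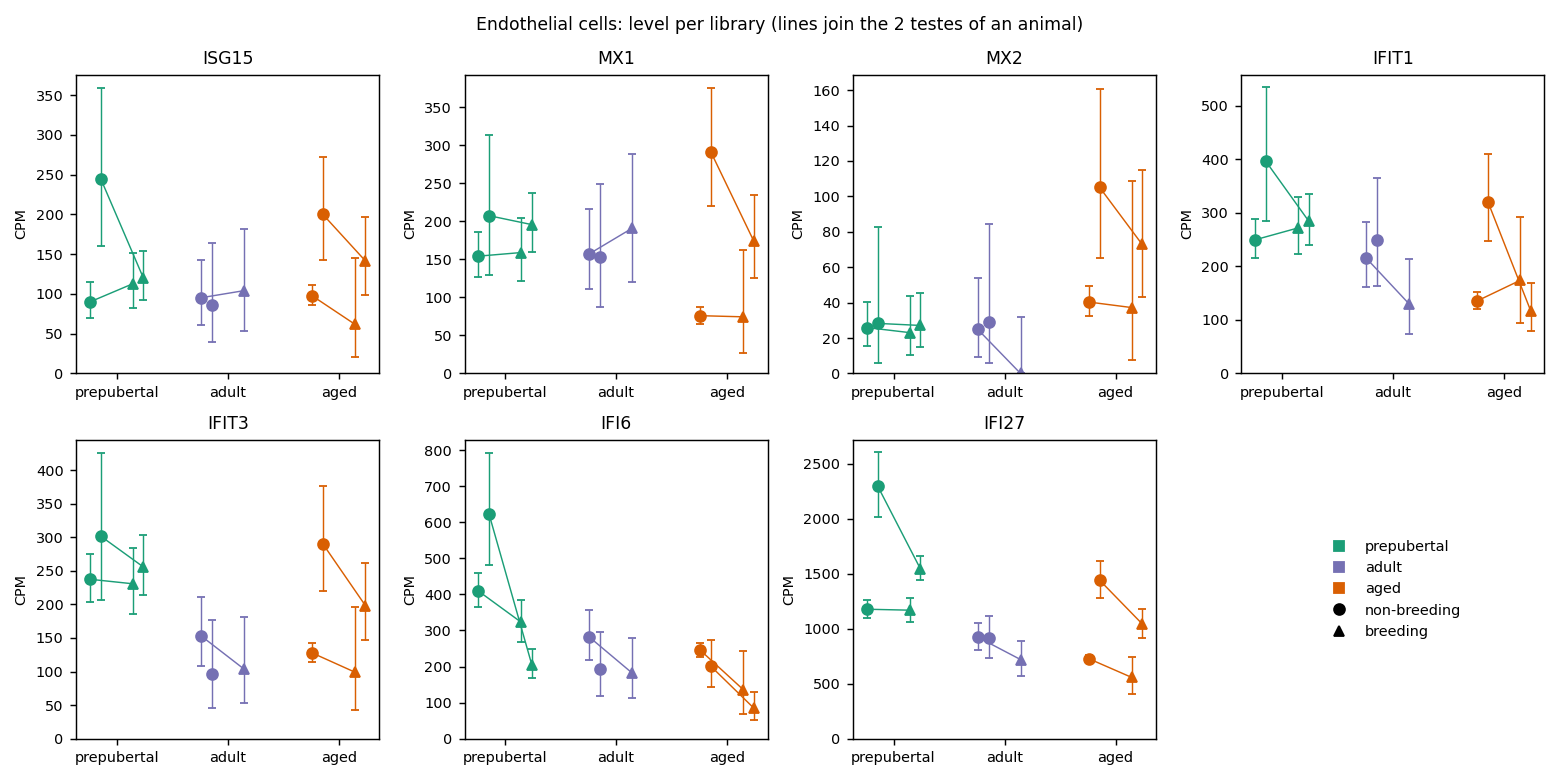
Points give the level of each gene in endothelial cells of each library in CPM with 95% Poisson intervals, circles for the non-breeding and triangles for the breeding season, and lines join the testes of an animal. Aged animal 2 stands at 290 CPM of MX1 and 105 CPM of MX2 in the non-breeding season.

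MX2 was also compared between aged and adult libraries in further classes. In interstitial stromal cells it was at 24.7, 36.0, 8.70 and 28.3 CPM in the 4 aged libraries (non-breeding 1 and 2, then breeding 1 and 2) and at 7.33, 6.04 and 3.75 CPM in the adult ones, a difference of 1.06 on the log2(CPM + 10) scale (SD 0.36). The lowest aged and the highest adult value rest on 2 and 4 UMIs, with intervals of 1.05 to 31.4 and 1.998 to 18.8 CPM, so that this separation too lies within counting error. The difference was 0.00 when cells were clustered at the lower resolution of 1 in place of 2. In peritubular and smooth muscle cells it was at 34.2, 38.2, 25.2 and 11.9 CPM against 1.99, 0 and 0 CPM, a difference of 1.77 (SD 0.15). The adult values rest on 1, 0 and 0 UMIs, and a count of 0 allows up to 34.7 CPM in the library of animal 2 and 17.0 CPM in the breeding library of animal 1. The aged breeding values rest on 3 and 2 UMIs. A difference of the aged libraries from adult animal 2 was not detectable at this depth. In myeloid cells the aged libraries had 84.2, 212, 36.8 and 171 CPM and the adult ones 76.8, 15.6 and 44.7 CPM, which overlapped. ISG15 in myeloid cells was at 48.3, 156, 9.20 and 68.3 CPM in aged animals, against 7.68, 0 and 0 CPM in adult ones, and at 28.8 to 74.7 CPM in the 3 prepubertal libraries with enough cells. These sums rest on 22 to 317 myeloid cells, and the 0 of ISG15 in adults allows up to 46.9 and 44.7 CPM.

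Among germ cells, IFI27 and IFI6 were compared with the Sertoli genes. In prepubertal spermatogonia, the stem and progenitor cells of the line, IFI27 stood at a median of 13.2% of its Sertoli level (11.7% to 17.5% over 4 libraries) and IFI6 at 12.4%, where AMH was at 9.90% and INHA at 11.1%, with overlapping ranges. In adult spermatogonia IFI27 was at 6.85% to 15.2%, above AMH at 2.80% to 6.13% and overlapping INHA at 3.45% to 8.89% and the Sertoli gene CST9L at 4.97% to 13.7%. In late spermatocytes of the aged animals the medians were 2.58% for IFI27 and 2.43% for IFI6, against 1.40% for AMH. IFI27 was at 255 to 392 CPM in prepubertal and 48.4 to 118 CPM in adult spermatogonia, and the part of Sertoli RNA in these levels was not tested. ISG15 differed from this in spermatogonia, at 14.7% to 73.3% of the Sertoli level before puberty and 45.9% to 186% in adults. AMH reached 15.8% and 6.13% there, so that only the lowest prepubertal library lay within the range of AMH. The 186% rests on 5 UMIs in spermatogonia and 9 in Sertoli cells of the breeding library of adult animal 1. By library ISG15 was at 21.7, 24.5, 41.4 and 9.77 CPM in prepubertal and 12.3, 19.9 and 15.1 CPM in adult spermatogonia, from 105 to 716 cells a library.

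MX1 and IFIT1 were also found in meiotic cells. MX1 in early spermatocytes was at 12.5 and 13.5 CPM in the adult non-breeding libraries (62 and 29 UMIs), against 6.07 and 6.97 CPM of IFIT1. The MX1 level was 45.3% to 124% of that in Sertoli cells over 3 adult libraries, the lowest with 1 UMI, where AMH was at 3.73% to 12.4%, and early spermatocytes held 13.5% of the MX1 UMIs in adults. In the aged libraries MX1 there was at 203%, 21.9%, 97.7% and 20.5% of the Sertoli level. These values rest on 2 to 8 UMIs in early spermatocytes and on 3, 16, 2 and 2 UMIs in Sertoli cells. In late spermatocytes IFIT1 was at 11.01 and 12.2 CPM in the adult non-breeding libraries, at 20.3 and 20.5 CPM in the adult breeding ones, at 12.9 and 7.69 CPM in the aged non-breeding and at 23.3 and 5.04 CPM in the aged breeding ones. That was 36.0% to 80.7% of the Sertoli level in the 3 adult libraries with enough Sertoli cells and 24.01% to 128% in the 4 aged ones, where AMH was at 0.668% to 4.68%. The 24.01% and 128% have only 1 and 2 Sertoli UMIs of IFIT1 behind them, and the aged non-breeding libraries, with 7 UMIs each, gave 69.0% and 40.1%. The value of 20.5 CPM belongs to the small breeding library of adult animal 2 and rests on 43 cells. IFIT3, its partner, was at 0 to 0.671 CPM in the same 8 libraries, and MX1 at 0 to 1.24 CPM. A UMI of IFIT1 was found in 1.57% to 8.76% of these cells. Late spermatocytes held 23.7% of the IFIT1 UMIs in adult and 23.9% in aged animals, and round spermatids 17.4% and 19.2%. Neither class held more than 6.85% of the UMIs of any other of the 7 genes. Both classes also held a large part of the UMIs of all genes. No enrichment is therefore read from the shares of UMIs in this paragraph. In IFIT1 of late spermatocytes the 2 aged animals differed, with animal 1 at 12.9 and 23.3 CPM and animal 2 at 7.69 and 5.04 CPM.

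**Figure D4:**
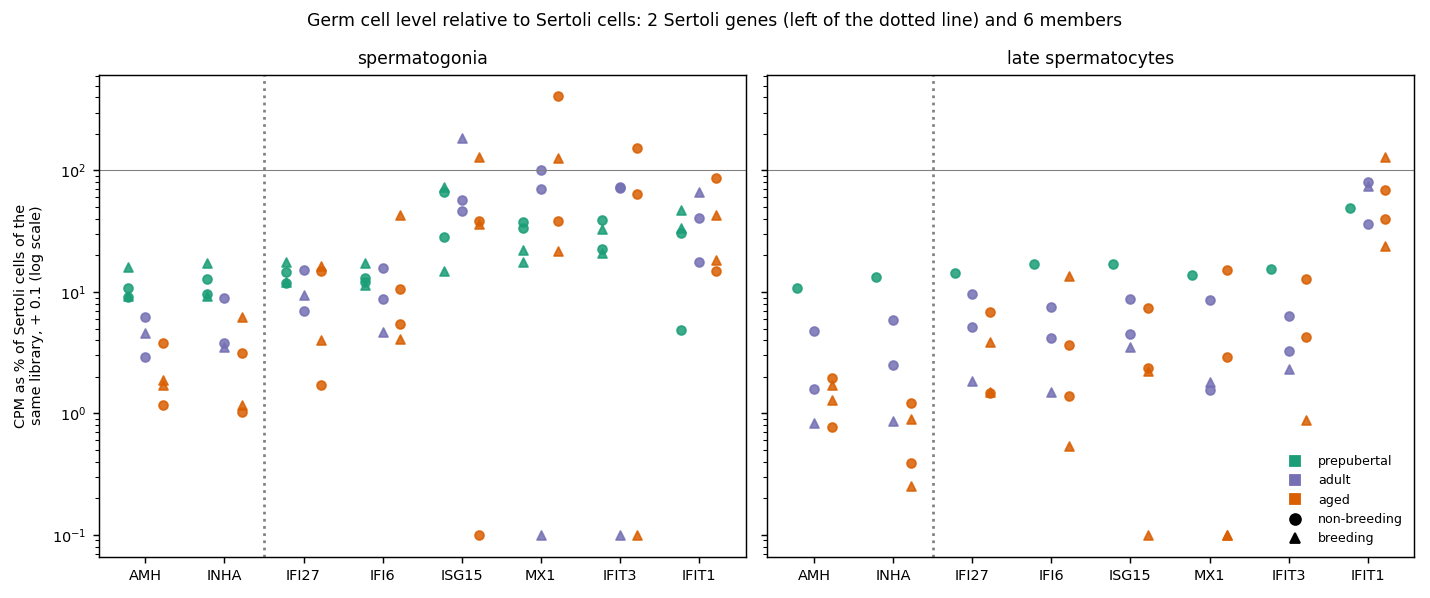
Each point is the CPM of a gene in spermatogonia or late spermatocytes of 1 library as a percentage of its CPM in the Sertoli cells of that library, plus 0.1, on a log scale; AMH and INHA, left of the dotted line, are the Sertoli genes. In late spermatocytes IFIT1 lies at 69.0% and 40.1% in the aged non-breeding libraries, whereas AMH stays below 2%; the aged breeding points of 24.01% and 128% rest on 1 and 2 Sertoli UMIs.

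Between seasons the levels were compared within animals, as breeding minus non-breeding on the log2(CPM + 10) scale. The testes of an animal were removed on different dates, so that season cannot be told apart from the date and order of removal. The paper names compensation after removal of 1 testis and other changes over time as limits of this design. In adult animals IFI27 was lower in the breeding season in 14 of 14 pairs of class and animal (median -1.82), and by at least 1 log2 unit in 9 of them. Animal 1 gave 11 of these pairs (median -1.499, 7 by at least 1 unit). The other 3 rest on the small breeding library of animal 2, with 0, 1 and 0 UMIs of IFI27 in 43 late spermatocytes, 20 round spermatids and 38 elongated spermatids. That library shared barcodes with a library of aged animal 1, as given above. Its intervals reach 75.8, 349.6 and 46.3 CPM, against 72.9, 82.3 and 107 CPM in the non-breeding season, and of these only that of elongated spermatids stays below its non-breeding value. In aged animals IFI27 was lower in 16 of 22 pairs (median -0.54), 10 of 11 in animal 1 and 6 of 11 in animal 2, and in prepubertal animals in 9 of 14 (median -0.08), 3 of 7 in animal 1 and 6 of 7 in animal 2. IFI6 was lower in 12 of 14 adult pairs (median -0.83) and 20 of 22 aged pairs (median -0.76), ISG15 in 12 and 19, MX1 in 12 and 20, IFIT3 in 9 and 18, and MX2 in 9 and 13. IFIT1 was lower in 9 of 14 and 14 of 22, with a median of -0.19 and -0.17. In adult animal 1 alone IFI6, ISG15 and MX1 were lower in 9 of 11 pairs, and MX2 and IFIT1 in 7. IFIT3 was lower there in 6 of 11, with a median of -0.0022. The other 3 adult pairs of each gene rest on the small breeding library. It held 0 UMIs of these genes in the 3 classes, apart from IFIT1, so that a higher value was not possible. In prepubertal animals ISG15, MX1, IFIT1 and IFIT3 were lower in 7 of 14 pairs and IFI6 and MX2 in 9. The 2 prepubertal animals went different ways, with ISG15 lower in 1 of 7 pairs in animal 1 and 6 of 7 in animal 2, and IFI6 in 2 and 7. Pairs of 1 animal share their libraries and are not independent, and no test was made.

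Sertoli transcripts in germ cells moved in the same direction in adult animal 1. In round spermatids CST9L, a gene of adult Sertoli cells, was at 368 and 245 CPM in the adult non-breeding libraries and at 44.4 CPM in the breeding library of animal 1, and IFI27 was at 87.9, 82.3 and 12.1 CPM in the same libraries. Within Sertoli cells of adult animal 1 IFI27 was at 780 CPM in the non-breeding and 517 CPM in the breeding season. The part of free RNA in the season values of germ cells was not tested.

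The 7 genes did not share 1 pattern. Over 114 sums of a class in a library, Pearson's r of log2(CPM + 10) was 0.89 for IFI6 and IFI27, 0.84 for MX1 and IFIT3, 0.83 for ISG15 and MX1 and 0.78 for IFIT1 and IFIT3, and only 0.43 for MX2 and IFI27 and 0.51 for IFIT1 and IFI27. Sums of a library share its depth and free RNA, and r is given without a p-value. Among 15571 genes with over 500 UMIs, of which the 7 genes themselves were not ranked, the closest to ISG15 were EIF2AK2 (r = 0.85), IRF9 (0.82) and KLF3 (0.82), and the closest to MX1 were IFI44 (0.83), EIF2AK2 (0.83) and RNF213 (0.82). EIF2AK2 encodes the kinase PKR, which halts translation when it meets double-stranded RNA. MX2 was nearest to CTSZ (0.77), CIITA (0.76), the master regulator of MHC class II genes, and STING1 (0.76). IFIT1 was nearest to CALCRL (0.84), CAVIN2 (0.82) and TM4SF18 (0.82), and IFIT3 to IFI44 (0.84), RIN2 (0.83) and CALCRL (0.82). CALCRL, a receptor of adrenomedullin, and CAVIN2, a coat protein of caveolae, are known from endothelial cells. IFI6 was nearest to ENSMMUG00000055825 (0.91), SCARB2 (0.90) and IRF9 (0.89), and IFI27 to RPL39 (0.89), ENSMMUG00000055825 (0.89) and FAM127C (0.89). Of the 20 closest genes, 10 were on the interferon lists for MX2, 6 for MX1, 5 each for ISG15 and IFIT3, 1 each for IFI6 and IFI27 and 0 for IFIT1, against 0.54% of all genes considered.

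The other genes of the pathway were taken from lists of ligands, receptors, signal transducers, sensors, feedback inhibitors and effectors, without the 7 genes. They were tested by edgeR's quasi-likelihood test on UMIs summed per class, with Benjamini-Hochberg adjustment over all genes of a class and a threshold of 0.05. The lists were put together with earlier results of these libraries known. Of the 7 genes in all classes, 49 pairs of gene and class in prepubertal, 63 in adult and 63 in aged season comparisons passed the filter on low counts, as did 61 in the aged minus adult and 58 in the adult minus prepubertal comparison, and their levels are described above without a test. Interferon ligands were nearly absent. Of the 12 that were found, 8 had any UMI, and the highest was IFNG with 315 UMIs, of which 218 were in the T and NK cells of the non-breeding library of aged animal 1. IFNG there was at 55.3 CPM, and at 24.7 to 117 CPM in the T and NK cells of the other libraries. IFNB1 had no UMI.

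Between adult and prepubertal animals, 45 of 611 tested pairs of list gene and class passed the threshold, 39 lower and 6 higher in adults. In either direction this was 7.37%, against 8.32% called among all 116796 pairs of gene and class. The directions were unlike. Among all genes tested in Sertoli cells 1986 were called higher and 1409 lower in adults, and in interstitial stromal cells 2044 and 643. The contrast in direction was not tested. In Sertoli cells 24 of 78 list genes were lower and 2 higher in adults. Of all 15574 Sertoli genes tested 21.8% were called either way and 9.05% were called lower. The contrast between the list genes and all Sertoli genes was not tested. The 24 lower became 11 without adult animal 1, 13 without adult animal 2 or without prepubertal animal 2, and 21 without prepubertal animal 1. The median log2 fold change of the list genes there was -0.91, and that of all Sertoli genes -0.03. The genes lower in adult Sertoli cells included receptors, a kinase and effectors. IFNAR2, a chain of the type I interferon receptor, fell by 1.55 on the log2 scale (SE 0.21, adjusted p = 0.00581), IFNLR1, the type III receptor, by 1.56 (SE 0.23, adjusted p = 0.00698) and the kinase JAK2 by 1.78 (SE 0.27, adjusted p = 0.00721). The other receptor chain IFNAR1 (-0.90) and the kinases JAK1 (0.07) and TYK2 (-0.23), named after their values were seen, did not pass.

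By library, IFNAR2 was at 134 to 149 CPM in prepubertal Sertoli cells and at 34.4 to 50.7 CPM in adult ones, and IRF9, which binds DNA in the complex named above, was at 86.1 to 194 CPM against 23.5 to 49.4 CPM. Neither overlapped. IFNGR1, a chain of the gamma receptor, was at 34.1 to 38.6 CPM against 40.2 to 53.4 CPM and did not pass the test. IFNGR2, the other chain, was lower in adults by the test (-0.91, SE 0.22, adjusted p = 0.0253). By adjusted p the calls of IFNGR2 and of IRF9 in Sertoli cells ranked 29 and 31, and both were lost when 1 animal was left out. Of the 20 calls with the smallest adjusted p, 14 were in Sertoli cells, and 11 of the 20 stayed under the threshold whichever animal was left out. The calls lost in Sertoli cells were DHX58, PARP12, IRF5 and USP18, with an adjusted p of up to 0.0528, 0.0548, 0.0594 and 0.0684. Among their effectors were BST2, which tethers budding viruses (-3.78, SE 0.75), EPSTI1 (-3.74, SE 0.41), IFI35 (-2.50, SE 0.40), PARP12 (-2.37, SE 0.44), DDX60 (-2.21, SE 0.30), IFI44 (-2.02, SE 0.29) and EIF2AK2 (-1.80, SE 0.26). SERPING1, the inhibitor of complement C1, was at -3.83 (SE 0.46), USP18, which removes ISG15 from proteins and damps the receptor, at -3.43 (SE 0.59), the RNA sensor DHX58 at -1.66 (SE 0.30), and IRF5 at -5.25 (SE 1.05).

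The 6 others lay in interstitial stromal cells and spermatogonia. IRF1, a transcription factor induced by interferon gamma, was at -2.47 (SE 0.40), ICAM1 at -2.98 (SE 0.64), the RNA sensor DDX58 at -2.41 (SE 0.55) and IRF9 at -1.09 (SE 0.25), and TRIM25, which activates that sensor, was at 1.09 (SE 0.25). IRF9 in spermatogonia was at -1.66 (SE 0.27). Of these 6 only IRF1 kept its call whichever animal was left out, and the adjusted p of the others reached 0.103 to 0.172. In endothelial cells 0 of 75 list genes passed the threshold, while 9.99% of all endothelial genes did. Interstitial stromal cells had 1 of 76 list genes higher and 8 lower in adults. Of all their 13071 genes 20.6% were called either way, 2044 higher and 643 lower. Spermatogonia had 1 of 65 higher and 3 lower, against 2.67% of all their 14331 genes called either way, 297 higher and 85 lower. The immediate early list had 20 of 98 pairs lower in adults and 0 higher. Of all 116796 pairs of gene and class 8.32% were called either way. The share called lower over all classes is not given, and this contrast was not tested. The count of 45 was 18 without prepubertal animal 2 and 19 without adult animal 2, and 56 without the cells of older type in the library of prepubertal animal 1.

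**Figure D5:**
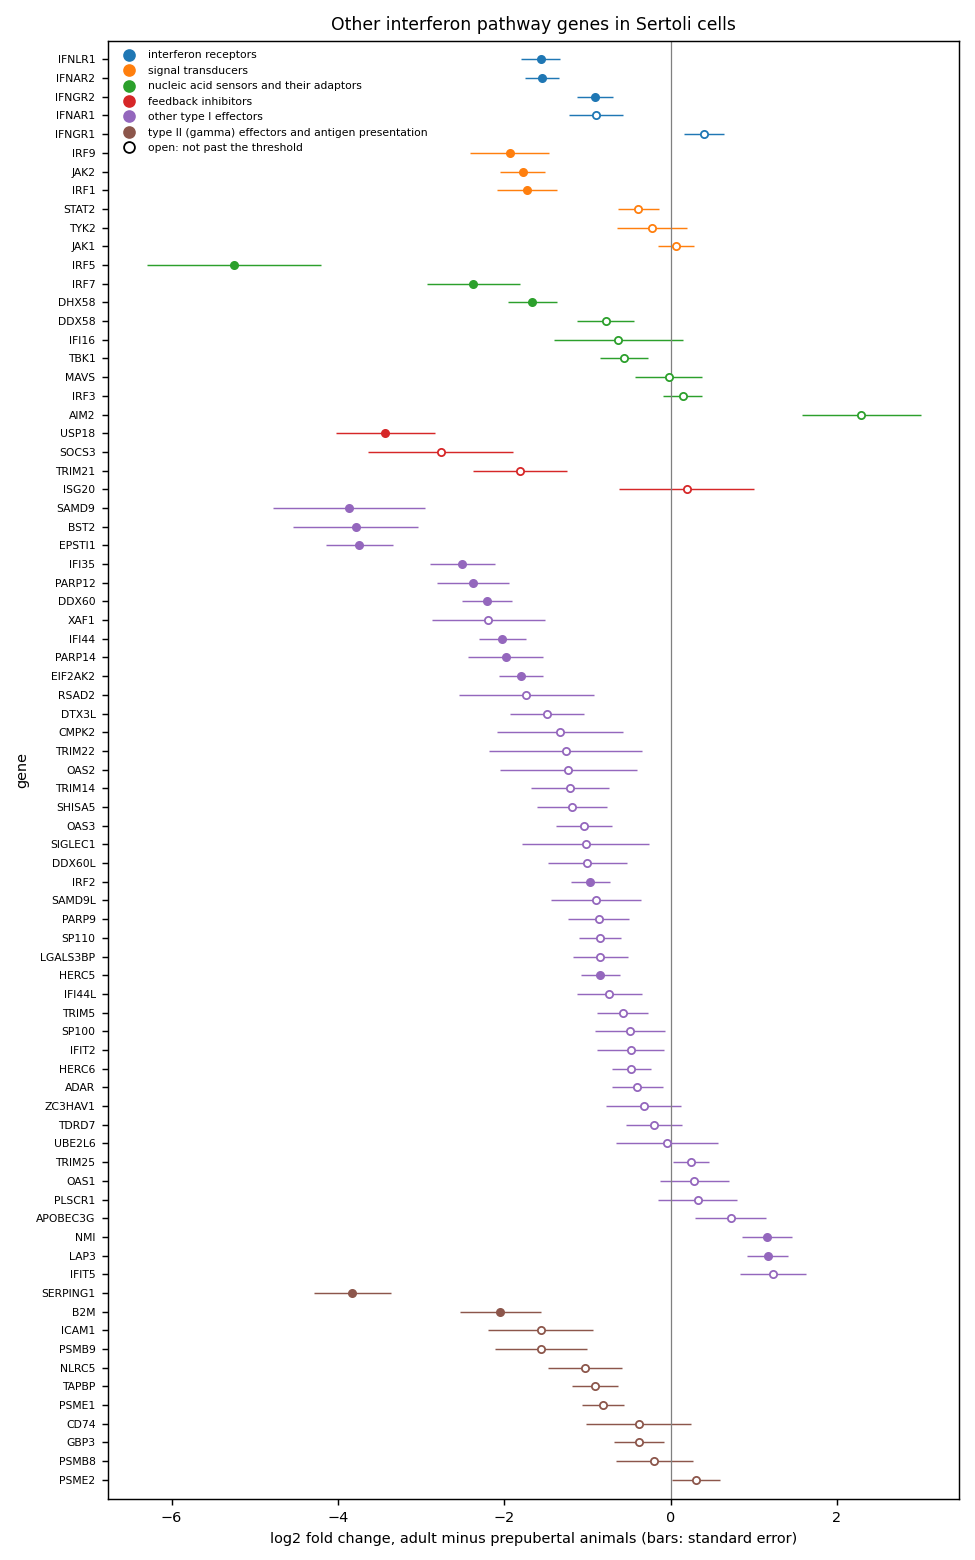
Each point is the log2 fold change of a pathway gene in Sertoli cells, adult minus prepubertal animals, from edgeR with its standard error; colours mark the lists and filled points passed an adjusted p of 0.05. Of the 77 genes drawn, of 78 tested, 23 lie to the left and 2, NMI and LAP3, to the right as filled points.

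Between aged and adult animals 1 of 663 pairs passed, against 0.695% of all 129285. It was TRIM25 in peritubular and smooth muscle cells, at 1.52 (SE 0.36, adjusted p = 0.0365). The call was lost when 1 animal was left out (adjusted p up to 0.516), and at the clustering resolution of 1 the only call was a gene lower in aged animals. In all 96 pairs were under an unadjusted p of 0.05. The share of all genes under that limit is not given, so that nothing is read from this count. The number of calls was higher in each fit that left out 1 animal, as given at the end. DESeq2 called 10. The lists' medians, without a test, were 0.72 in myeloid cells, 0.58 in interstitial stromal cells, 0.41 in peritubular and smooth muscle cells and 0.28 in Sertoli cells, where those of all genes were 0.09, 0.10, 0.14 and -0.12. In the other 7 classes they ran from -0.33 in T and NK cells to 0.16 in endothelial cells, and the median over all 663 pairs was 0.17.

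Between the breeding and the non-breeding season edgeR called 0 list pairs at each age. In prepubertal animals this was 0 of 464 with 25 under an unadjusted p of 0.05, against 0.0254% called among all genes. In adults it was 0 of 615 with 30, against 0.33%, and in aged animals 0 of 615 with 52, against 0.000839%. DESeq2 also called 0 at each age. The shares of all genes given here are of calls after adjustment. The shares of all genes under an unadjusted p of 0.05 are not given, so that nothing is read from the unadjusted counts.

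The seasons are paired by animal. When the animal entered the fit as a replicate block, the counts were higher. They became 8 of 464 in prepubertal animals, 8 higher in the breeding season, against 1.13% of all genes, 32 of 615 in adults, 10 higher and 22 lower, against 7.78%, and 23 in aged animals, all lower, against 0.501%. In the prepubertal animals 7 of the 8 were in interstitial stromal cells, of 69 list genes tested there. In these cells IRF1 was at 2.67 (SE 0.21) and DDX58 at 2.24 (SE 0.20), both named after their values were seen. In the aged animals 15 were in round spermatids (73 list genes tested), 7 in late spermatocytes (69 tested) and 1 in elongated spermatids (44 tested). B2M, the light chain of MHC class I, was among them in all 3 classes. B2M in round spermatids was at 151 and 8.96 CPM in the non-breeding and 13.6 and 6.66 CPM in the breeding libraries of aged animals 1 and 2, and CST9L, the Sertoli gene, at 84.4 and 34.1 against 20.9 and 34.6 CPM. The first of these libraries is the one with the many T and NK cells, and the part of free RNA in these calls was not tested. In the adults animal 2 had at least 20 cells in both seasons in late spermatocytes, round spermatids and elongated spermatids only, and in the other classes the pairs come from animal 1, so that the spread there is taken from the other ages. Of the 32 adult calls 21 were in late spermatocytes, 5 in round and 2 in elongated spermatids, where the breeding library of animal 2 has 43, 20 and 38 cells. A further 3 were in interstitial stromal and 1 in endothelial cells. In these 5 classes 69, 73, 44, 69 and 73 list genes were tested. For the fit with a block the share of all genes called in a single class is not given. Nothing is therefore read from the split of these calls by class at any age. For the immediate early genes the main fit gave no call between seasons. Their median log2 difference over classes was 0.65 in prepubertal, -0.69 in adult and -0.48 in aged animals. The part of these genes' response in the season values was not tested.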

How the data were processed

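The authors deposited raw UMI counts per gene and cell barcode for 12 testis libraries, made with Cell Ranger 9.0.0 on Mmul_10 per the submitters' processing notes. The tables were assigned to animals through the study's supplementary library sheet. The filter took out barcodes below 300 genes, above 30000 UMIs or above 3% UMIs of mitochondrial genes and left 112150 of 112577, and 9435 doublets predicted by scrublet in scanpy 1.11.5 were removed, none being called in the library of 117 cells. Cells were clustered on 2000 variable genes without the interferon genes (30 components, 20 neighbours, resolution 2), and the 38 clusters were named from marker lists, which left 4467 cells unnamed.

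UMIs were summed per class and library (seasons) or per class and animal (ages) for at least 20 cells. edgeR 4.0.16 (R 4.3.3) with filterByExpr, TMM and the quasi-likelihood test was used, with Benjamini-Hochberg adjustment over all genes of a class and a threshold of 0.05. The scripts were tested on simulated data, and DESeq2 1.42.0 was an alternative. Pairing by animal follows from the design, since each animal gave both testes, and deviations of the same animal had r from -0.15 to 0.57 in 19 sets of class and age. The other alternatives were the filter, size factors, doublets, resolution, mitochondrial limit and leaving out each replicate. Replicates are animals. Named were the 7 genes, up to 20 called pathway genes per comparison in order of adjusted p, and the 3 genes most like each member. A few further pathway genes were named after their values were seen. The members and lists were chosen with earlier results of these data known.

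Intervals are exact 95% Poisson intervals. Shares of cells with a UMI were also computed at 500 UMIs a cell, leaving out shallower cells. Transcript starts and promoter sequences are from RefSeq on Mmul_10. One pathway gene and one promoter stretch are not reported here.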

Additional observations from a re-analysis of the deposited data

How the results depend on the processing

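With no filter on low counts, edgeR called 6, 2 and 8 pairs of pathway gene and class between seasons in prepubertal, adult and aged animals, where 0 were called with the filter, 30 between aged and adult animals in place of 1, and 87 between adult and prepubertal animals in place of 45. With the animal as a replicate block, the paired fit, the season counts were 8, 32 and 23. At the clustering resolution of 1 they were 1, 0 and 2. The aged minus adult count was 2 with DESeq2 size factors, 10 with the DESeq2 Wald test, 3 with predicted doublets kept and 2 without the small adult breeding library, an alternative chosen after seeing the data.

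Leaving out 1 library, the season counts ranged from 0 to 1 in prepubertal, 0 to 5 in adult and 0 to 16 in aged animals. The 1 was without prepubertal animal 2 (non-breeding), the 5 and 3 were without adult animals 2 and 1 (non-breeding), the 16 was without aged animal 2 (non-breeding), and 1 was without aged animal 2 (breeding). Leaving out 1 animal, the aged minus adult count ranged from 3 to 15, with 6 and 5 without adult animals 1 and 2 and 3 and 15 without aged animals 1 and 2. The adult minus prepubertal count ranged from 18 to 39, the lowest without prepubertal animal 2, and was 19 without adult animal 2. The animal left alone in its group is assumed to vary like the other groups. Shares of all genes called are given above for the main fit and the fit with a block only. For the other alternatives a change of a list count therefore cannot be told apart from a change over all genes. The causes were not tested.

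Of 98 age differences of the 7 genes in a class, 28 moved by more than the spread between replicates and 10 changed sign at resolution 1, among them IFI27 in interstitial stromal cells (aged minus adult, from -1.04 to 0.37), while 9 moved and 0 changed sign with TMM scaling. Leaving out a replicate, 116 of 777 age values moved and 48 changed sign, and 76 of 504 season values changed sign. Without the older-type cells, an alternative also chosen after seeing the data, 0 of 91 age values moved. Of 140 season values 2 moved and 3 changed sign. With 2 animals an age and few cells of some classes, a difference that was not called may still exist. Depth limits the values of classes with few cells, among them aged Sertoli cells, myeloid cells and T and NK cells.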
